A study of Mus musculus with 4 samples.

Results

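The 10 genes described here encode proteins of the contacts between endothelial cells, and were read in mesodermal cells sorted from differentiating mouse embryonic stem cells. They were chosen by name, as Cdh5, Pecam1, Cldn5, Esam, Jam2, Jam3, F11r, Tjp1, Gja4 and Gja5, through every non-control probe whose RefSeq accession maps to one of these symbols. All 10 had a probe, among 20660 genes named on the array. The starting cells were EB5 mouse embryonic stem cells carrying a reporter that marks Hoxb6 with red fluorescent protein (RFP). Before sorting they spent 6 days differentiating on OP9 feeder cells, which are mouse stromal cells of bone marrow origin. The RFP-negative fraction was Flk-1+Hoxb6-RFP- at day 6 and the RFP-positive fraction Flk-1+Hoxb6-RFP+ at day 6, each hybridised to 2 one-colour arrays. Flk-1 is the VEGF receptor encoded by Kdr, which marks early mesoderm and endothelium. Both fractions share the line, the reporter, the feeder and the Flk-1 gate. All cells derive from a single line, and the sources used here do not state how the reporter was built. OP9 is a mouse line too, so RNA of any feeder cells in a fraction is read by the same probes.

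Endothelial cells are joined by adherens junctions, tight junctions and gap junctions. In the first, a cadherin binds its like on the neighbouring cell and is tied to actin through catenins. In the second, claudins and immunoglobulin-type adhesion molecules seal the cleft and bind scaffold proteins inside the cell, while gap junctions are channels made of connexins. Cdh5 and Pecam1 are markers by which endothelium is recognised as it emerges from Flk-1-positive mesoderm, whereas F11r, Jam3 and Tjp1 are also used by epithelia and other cells.

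Signals are given on the log2 scale relative to the 75th percentile of the same array, so that a difference of 1 is a 2-fold ratio. SDs are taken over the 2 arrays within a fraction, and SE and 95% interval belong to limma's fit. A difference is the RFP-positive mean minus the RFP-negative mean. Each probe is compared only with itself. Between 55.2% and 59.3% of the spots of an array were marked by the image analysis software as well above background. On these arrays 0 spots were saturated, and the number of arrays limits the precision. The labels do not say whether replicates were separate cultures, so p-values measure the spread between these samples, which may be technical. Kdr was at 4.18 and 4.33 in the RFP-negative and at 4.41 and 4.36 in the RFP-positive fraction. Both fractions passed the same Flk-1 gate and no sample outside it was measured, so these values cannot check the sort. Hoxb6 itself stayed below the software's background mark on all 4 arrays, so the reporter status could not be checked against its transcript.

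Promoter sequence is shown first, for the members that separated the fractions and have an entry in RefSeq's promoter table (build GRCm38.p6), so that the regulatory stretch can be read beside the expression values. Of the 10 members, 5 matched by symbol, namely Cldn5, F11r, Tjp1, Gja4 and Gja5. Each stretch runs from 250 bases before the start site to 50 after it, 5′ to 3′ on the gene's strand. The windows are chr16:18776597-18776896 on the plus strand for Cldn5, chr7:65371195-65371494 on the minus strand for Tjp1, chr4:127313990-127314289 on the minus strand for Gja4 and chr1:171437311-171437610 on the plus strand for F11r. Capitals mark matches, on either strand, to 4 short motifs of factor families active in endothelium: CGGAAG for Ets factors, AGATAA for GATA factors, ACAATG for Sox factors and CACCC for KLF factors.
Cldn5: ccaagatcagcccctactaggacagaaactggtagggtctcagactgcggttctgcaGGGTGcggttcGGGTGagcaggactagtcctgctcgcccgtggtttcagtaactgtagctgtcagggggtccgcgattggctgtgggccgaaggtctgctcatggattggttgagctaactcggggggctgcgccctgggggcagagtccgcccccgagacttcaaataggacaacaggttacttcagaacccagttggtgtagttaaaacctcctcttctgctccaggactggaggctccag
Tjp1: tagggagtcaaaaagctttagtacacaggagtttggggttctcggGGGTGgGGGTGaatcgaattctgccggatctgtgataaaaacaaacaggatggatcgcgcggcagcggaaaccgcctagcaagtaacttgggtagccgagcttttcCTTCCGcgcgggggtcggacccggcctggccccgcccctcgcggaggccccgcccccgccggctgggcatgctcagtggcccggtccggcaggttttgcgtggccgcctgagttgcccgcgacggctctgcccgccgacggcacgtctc
Gja4: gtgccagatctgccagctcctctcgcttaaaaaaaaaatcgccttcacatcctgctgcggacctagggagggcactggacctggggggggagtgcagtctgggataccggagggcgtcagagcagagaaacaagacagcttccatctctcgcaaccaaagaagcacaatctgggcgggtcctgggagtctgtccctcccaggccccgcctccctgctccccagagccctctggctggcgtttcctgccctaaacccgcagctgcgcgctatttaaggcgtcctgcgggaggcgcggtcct
F11r: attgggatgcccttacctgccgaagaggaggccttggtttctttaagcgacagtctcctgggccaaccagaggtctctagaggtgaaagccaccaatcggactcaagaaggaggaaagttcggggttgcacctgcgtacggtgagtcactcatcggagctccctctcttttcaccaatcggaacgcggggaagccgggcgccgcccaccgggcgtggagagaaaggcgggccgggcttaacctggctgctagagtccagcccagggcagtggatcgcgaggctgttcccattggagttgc

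Of these, Cldn5, Tjp1 and Gja4 were higher in both RFP-positive arrays, and F11r was lower. The Ets motif was found in 1 of the 5 promoters, that of Tjp1, read as CTTCCG with its first base 99 bases before the start site. Of the 32851 promoters of this length in the table, 16.9% hold it. The KLF motif, which has only 5 letters, was found in Cldn5, Tjp1 and Gja5, and 57.5% of all promoters hold it. It is read as GGGTG, starting 193 and 182 bases before the start site in Cldn5 and 205 and 199 bases before it in Tjp1. The GATA and Sox motifs, held by 11.2% and 12.6% of all promoters, are not in these 5 windows. The windows of Gja4 and F11r hold none of the 4 motifs as spelled here, and no match overlapped another. The GC content was 58.3% in Cldn5, 65.3% in Tjp1, 62.0% in Gja4, 60.3% in F11r and 55.7% in Gja5, beside a median of 52.7% over all promoters. A match describes letters and is not a binding site.

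The comparison asked whether endothelial junction genes differ between Flk-1-positive cells with and without the Hoxb6 reporter signal. In 6 of the 10, Cdh5, Pecam1, Cldn5, Jam2, Tjp1 and Gja4, both RFP-positive arrays lay above both RFP-negative arrays. In 1, F11r, they lay below, and in 3, Esam, Jam3 and Gja5, the fractions overlapped. Over the 13454 genes tested, 18.8% were higher and 21.6% lower without overlap, 40.3% in all. The members' median difference was 0.48, and that of all genes tested was -0.05. The members' median was 0.18 without RFP-positive replicate 2, 0.28 without RFP-negative replicate 1, and 0.18 where all probes of a gene were averaged. None of these differences passed limma's test: 0 of the 10 members had an adjusted p under 0.05, as did 0% of all genes tested. At an unadjusted p under 0.05 there were 0 members, beside 6.51% of all genes tested. All 10 were well above background on all 4 arrays, so none entered the test through 1 fraction alone. Of the 12438 such genes, 18.9% were higher and 20.4% lower without overlap. In bulk samples, fewer cells of a type and less RNA per cell cannot be told apart.

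**Figure D1:**
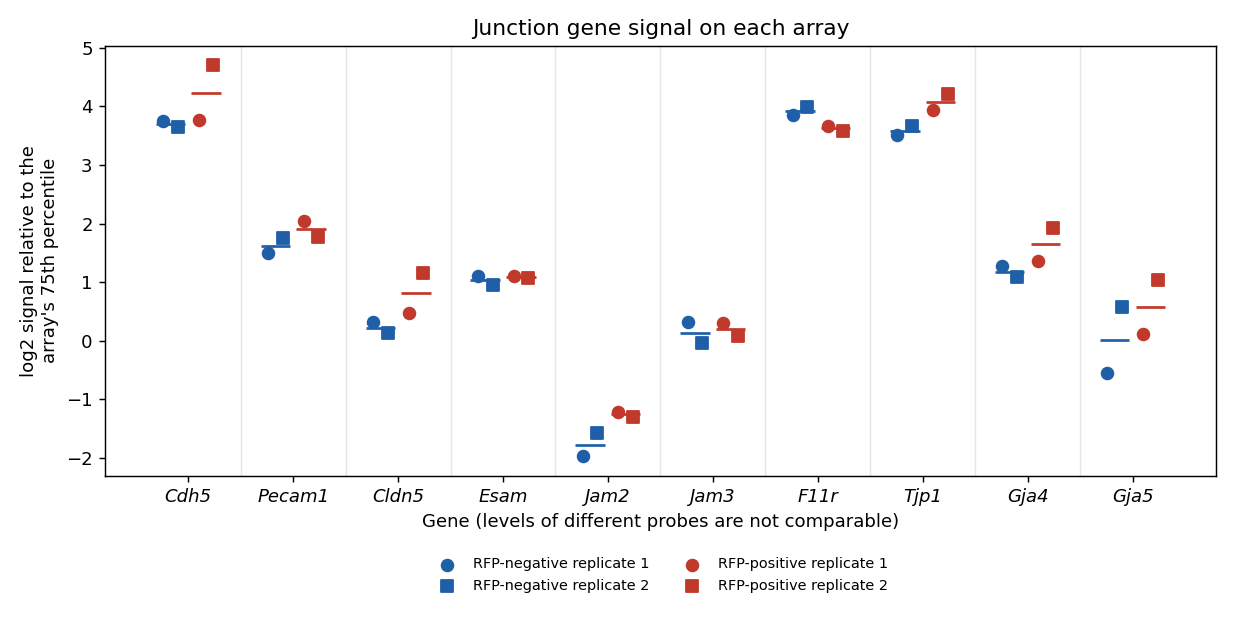
Log2 signal of each junction gene relative to the array's 75th percentile, for RFP-negative (blue) and RFP-positive (red) replicates 1 (circles) and 2 (squares), with bars at the mean of each fraction (n = 2). Cdh5 on RFP-positive replicate 2, at 4.70, stands above the other 3 arrays at 3.65 to 3.76, and F11r has both RFP-positive points below the RFP-negative ones.

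Among the adhesion molecules of the lateral border, Cdh5 encodes VE-cadherin, the cadherin of endothelial adherens junctions. Its signal was 3.76 and 3.65 on the RFP-negative arrays and 3.76 and 4.70 on the RFP-positive arrays. RFP-positive replicate 2 was high and the other 3 arrays lay close together, with a gap of 0.0060 between the fractions. The difference was 0.53 (SE 0.38, 95% interval -0.45 to 1.51, limma adjusted p 0.761). Without RFP-positive replicate 2 it was 0.06, and without RFP-positive replicate 1 it was 0.996.

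Pecam1 encodes CD31, an immunoglobulin-type molecule of endothelial borders that platelets and blood progenitors also carry. It gave 1.49 and 1.76 in the RFP-negative and 2.04 and 1.78 in the RFP-positive fraction, each the mean of 2 spots. The higher RFP-positive array was replicate 1, unlike for Cdh5, and the gap between the fractions was 0.02. The difference was 0.29 (SE 0.25, 95% interval -0.37 to 0.94, limma adjusted p 0.784). It was 0.15 without RFP-positive replicate 1 and 0.15 without RFP-negative replicate 1.

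Cldn5 encodes the main claudin of endothelial tight junctions, known for its part in the blood-brain barrier. It was at 0.31 and 0.13 in the RFP-negative and at 0.47 and 1.16 in the RFP-positive fraction. The fractions did not overlap, and RFP-positive replicate 2 was again the highest array. The difference was 0.60 (SE 0.32, 95% interval -0.24 to 1.43, limma adjusted p 0.7495). It was 0.25 without RFP-positive replicate 2 and 0.94 without RFP-positive replicate 1.

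Esam, Jam2, Jam3 and F11r encode related immunoglobulin-type adhesion molecules found at or near tight junctions. Esam, named for its selective presence on endothelium and also on platelets, was at 1.11 and 0.95 in the RFP-negative and 1.11 and 1.08 in the RFP-positive fraction. The fractions overlapped, and the RFP-positive arrays lay close together. The difference was 0.07, with a 95% interval of -0.53 to 0.66 (limma adjusted p 0.934), and it turned to -0.0106 without RFP-negative replicate 2.

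Jam2 encodes JAM-B, an endothelial adhesion molecule that pairs with JAM-C. Its brighter probe was at -1.97 and -1.58 in the RFP-negative and -1.21 and -1.30 in the RFP-positive fraction. Both RFP-positive arrays were higher by a similar amount, and the gap of 0.28 between the fractions was wider than that of Cdh5, Pecam1, Cldn5, Gja4 or F11r. The difference was 0.52 (SE 0.26, 95% interval -0.15 to 1.18, limma adjusted p 0.749). It was 0.32 without RFP-negative replicate 1, the lowest array. A second Jam2 probe was below the software's background mark on all 4 arrays and was not used, and averaging it in gave -0.26.

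Jam3 encodes JAM-C, the partner of JAM-B, which fibroblasts, epithelia and other cells also carry. It was at 0.31 and -0.04 in the RFP-negative and 0.31 and 0.09 in the RFP-positive fraction. The fractions overlapped, and the replicate 1 array was the higher one in each. The difference was 0.06 (95% interval -0.62 to 0.74, limma adjusted p 0.945), and its sign turned to -0.12 without RFP-negative replicate 2 and to -0.05 without RFP-positive replicate 1.

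F11r encodes JAM-A, which is shared by epithelia, endothelium, platelets and leukocytes. It was at 3.86 and 3.98 in the RFP-negative and 3.66 and 3.58 in the RFP-positive fraction, the one member with both RFP-positive arrays below. The arrays of each fraction lay close together, with SDs of 0.09 and 0.06 (n = 2 each). The difference was -0.30 (SE 0.23, 95% interval -0.89 to 0.29, limma adjusted p 0.764), and it stayed between -0.36 and -0.24 with any 1 array left out.

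Tjp1 encodes ZO-1, the scaffold that binds claudins, JAMs and connexins on the inner side of the membrane and links them to actin. It was at 3.51 and 3.66 in the RFP-negative and 3.94 and 4.21 in the RFP-positive fraction. Both RFP-positive arrays were higher, with the widest gap between the fractions of any member, 0.28 (0.2818 against 0.2780 for Jam2). The difference was 0.49 (SE 0.24, 95% interval -0.14 to 1.12, limma adjusted p 0.749), a ratio of 1.403. It ran from 0.35 without RFP-positive replicate 2 to 0.62 without RFP-positive replicate 1.

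**Figure D2:**
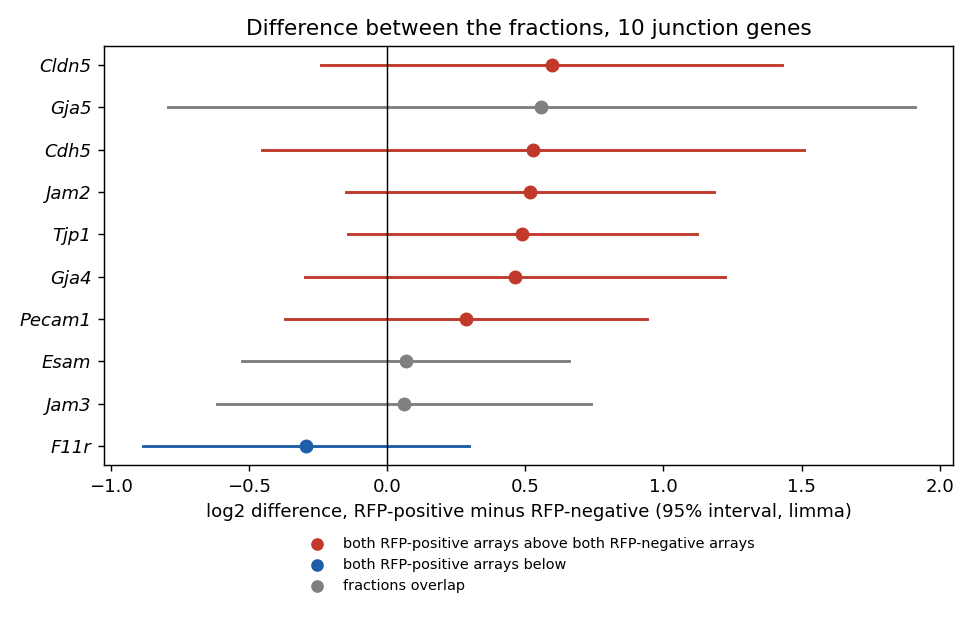
Log2 difference, RFP-positive minus RFP-negative, of the 10 genes with 95% intervals from limma (2 arrays per fraction), red where both RFP-positive arrays lay above both RFP-negative arrays, blue where they lay below and grey where the fractions overlapped. Every interval includes 0, from F11r at -0.30 to Cldn5 at 0.60.

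The remaining 2 members are connexins. Gja4 encodes a gap junction protein of endothelium and particularly of arteries. It was at 1.27 and 1.09 in the RFP-negative and 1.36 and 1.92 in the RFP-positive fraction. The fractions did not overlap, and RFP-positive replicate 2 was the highest array, as for Cdh5 and Cldn5. The difference was 0.46 (SE 0.29, 95% interval -0.30 to 1.22, limma adjusted p 0.7498). It was 0.18 without RFP-positive replicate 2 and 0.74 without RFP-positive replicate 1.

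Gja5 encodes the connexin of arterial endothelium and the conducting heart muscle. It was read by 2 probes well above background on all arrays, and they went opposite ways. The brighter probe was at -0.55 and 0.58 in the RFP-negative and 0.12 and 1.03 in the RFP-positive fraction. Its RFP-negative arrays lay further apart than those of any other member (SD 0.80, n = 2), and the difference of 0.56 had an SE of 0.52 (95% interval -0.79 to 1.91, limma adjusted p 0.792). The dimmer probe was at -3.13 and -1.79 in the RFP-negative and -2.91 and -3.32 in the RFP-positive fraction. In the fit over all 30545 probes it differed by -0.65 (SE 0.51, limma adjusted p 0.789). Each probe was brightest on a replicate 2 array, but of opposite fractions, and the fractions overlapped on both, so no direction was settled for Gja5. With the brighter probe alone the difference was 1.12 without RFP-negative replicate 2 and -0.0069 without RFP-negative replicate 1.

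Set against the RFP-negative mean, the 2 RFP-positive arrays differed in how far the junction genes lay from it. The median over the 10 genes was 0.18 on RFP-positive replicate 1 and 0.55 on RFP-positive replicate 2, where the same medians over all genes tested were 0.01 and -0.10. Cdh5, Cldn5, Gja4 and Gja5 were the 4 highest on replicate 2, at 0.996, 0.94, 0.74 and 1.01. On replicate 1 these 4 were at 0.06, 0.25, 0.18 and 0.11. Gja5 is given here by its brighter probe. Its dimmer probe was at -3.32 on RFP-positive replicate 2, below both RFP-negative arrays, at -3.13 and -1.79. Pecam1 and Jam2 were higher on replicate 1, at 0.42 and 0.56, than on replicate 2, at 0.15 and 0.47. Tjp1 lay above the RFP-negative mean on both, at 0.35 and 0.62, and F11r below it on both, at -0.26 and -0.33.

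**Figure D3:**
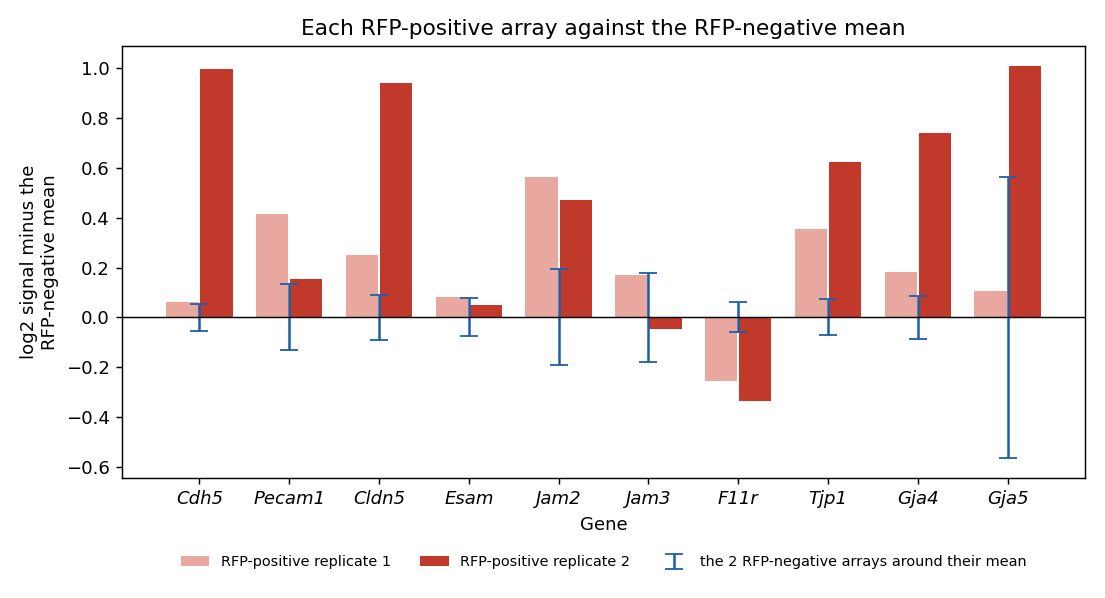
Log2 signal of each RFP-positive array minus the RFP-negative mean (bars, replicate 1 light and replicate 2 dark), with the spread of the 2 RFP-negative arrays around that mean (blue). Cdh5, Cldn5, Gja4 and the brighter probe of Gja5 are high on replicate 2 at 0.74 to 1.01, while Jam2 and Tjp1 are high on both arrays. The dimmer Gja5 probe, not drawn, was low on that array.

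The genes around the members were read from lists of junction proteins. None of these lists held a gene past an adjusted p of 0.05 in limma's test, and their medians lay nearer to that of all genes than the members' median did. Beside the counts below, 18.8% of all genes tested were higher and 21.6% lower without overlap. An unadjusted p under 0.05 in limma's test was found for 6.51% of all genes tested. The counts of the lists were not tested against these shares. The adherens junction list (catenins, actin linkers, small GTPases and phosphatases) had 21 of 21 genes tested, of which 5 were higher and 3 lower without overlap, and 1 had an unadjusted p under 0.05. Its median difference was 0.07, and 0.15 with each array scaled to its median, 0.13 with the deposited value table, 0.02 without RFP-negative replicate 2 and 0.0071 without RFP-positive replicate 1. The 4 genes of smallest p were Jup, Rap1a, Ptprb and Vcl. Jup, the plakoglobin that can replace beta-catenin on cadherins, was at 2.87 and 2.60 in the RFP-negative and 2.15 and 1.27 in the RFP-positive fraction, a difference of -1.02 (SE 0.37, limma adjusted p 0.744). Rap1a, a small GTPase that tightens junctions, differed by -0.65 (SE 0.30, limma adjusted p 0.744), and the related Rap1b by 0.07 with overlap. Ptprb, the endothelial phosphatase that acts on the Cdh5 complex, differed by 0.33, and Vcl, which links junctions to actin, by 0.32. Ctnnb1, which encodes beta-catenin, was at 6.59 and 6.75 in the RFP-negative and 7.003 and 6.872 in the RFP-positive fraction, a difference of 0.27. It was named because of its role and after its values were seen. The catenins Ctnnd1 and Ctnna1 differed by 0.19 and -0.04, both with overlap.

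The tight junction list had 24 of 28 genes with a probe tested, 5 higher and 4 lower without overlap, a median of 0.05, and 3 with an unadjusted p under 0.05. That median was 0.13 with each array scaled to its median, 0.11 with the deposited value table, 0.02 over genes well above background on all 4 arrays, 0.11 without RFP-negative replicate 2 and 0.09 without RFP-positive replicate 2. Cldn7, an epithelial claudin, was at 0.80 and 1.53 in the RFP-negative and 0.18 and 0.11 in the RFP-positive fraction, a difference of -1.02 (SE 0.33, limma adjusted p 0.744). Cldn6, a claudin of embryonic epithelia, differed by -1.52 (SE 0.56). In the other direction were Prkci, the atypical protein kinase C of the polarity complex, by 0.71 (SE 0.24), and Cldn11, by 1.45 (SE 0.62), which was at -2.02 and -2.26 against -1.58 and 0.20. Cldn4, another epithelial claudin, overlapped, at -2.16 and -2.21 against -3.58 and -1.45. Cldn1, Cldn2 and Cldn3 were below the background mark on all 4 arrays. Ocln, among the 5 higher, was well above background on only 1 RFP-negative array and entered the test through the RFP-positive fraction.

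Of the other connexins and pannexins, 11 of 21 were tested, 2 were higher and 2 lower without overlap, the median was 0.12 (-0.16 without RFP-positive replicate 1 and -0.06 with no filter on dim probes), and 0 had an unadjusted p under 0.05. Gjb2 differed by 0.86 and Gjd3 by -0.46, both with a limma adjusted p of 0.744. Of the other immunoglobulin-type junction and transmigration proteins, 11 of 14 were tested, 2 were higher and 3 lower without overlap, the median was -0.07, and 2 had an unadjusted p under 0.05. This median was 0.01 with each array scaled to its median, 0.11 without RFP-negative replicate 1, -0.19 without RFP-negative replicate 2 and 0.03 without RFP-positive replicate 1. Cd99, which leukocytes use with Pecam1 to cross endothelium, was at 4.03 and 4.02 in the RFP-negative and 3.42 and 3.11 in the RFP-positive fraction, a difference of -0.76 (SE 0.24, limma adjusted p 0.744). Cadm3 differed by -0.74, Igsf11 by -0.57, and Icam2, an endothelial adhesion molecule, by 0.49.

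**Figure D4:**
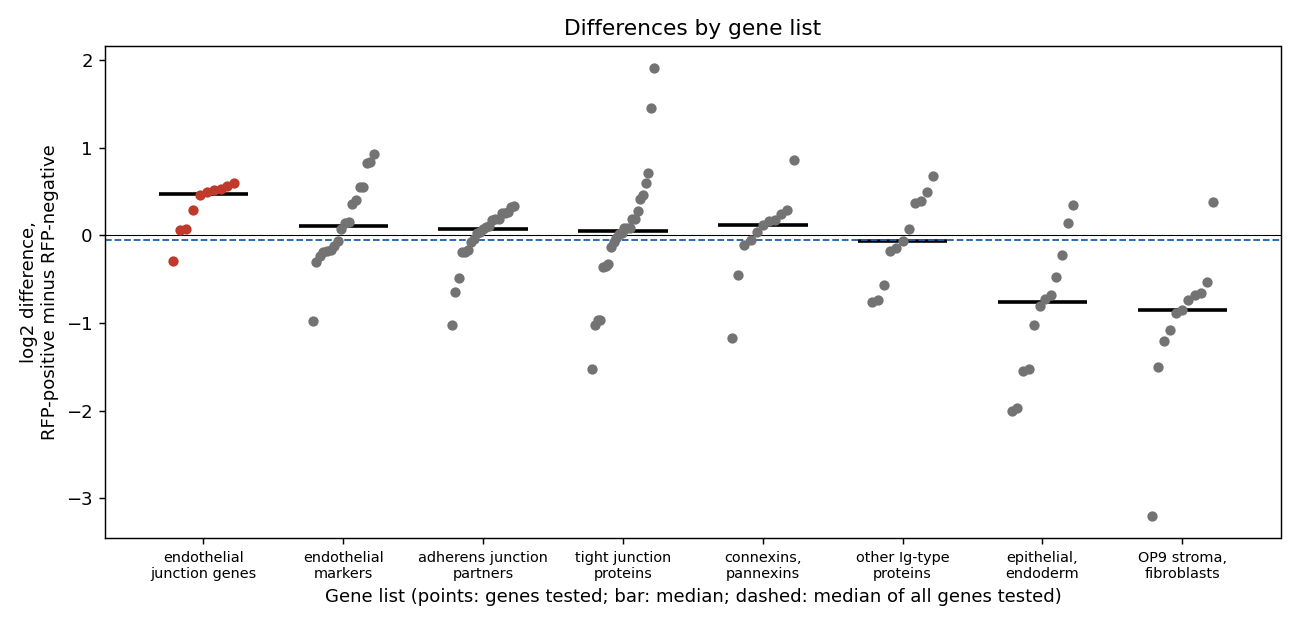
Log2 difference, RFP-positive minus RFP-negative, of each tested gene (points) by list, with the list's median (bar) and the median of all genes tested (dashed line, -0.05). The 10 endothelial junction genes (red) have a median of 0.48, the endothelial markers one of 0.10, and the epithelial and endoderm list and the OP9 stroma list have medians of -0.76 and -0.85.

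Markers of the cell types that a Flk-1-positive gate could hold were set beside these values. Over all genes tested, 18.8% were higher and 21.6% lower without overlap, and the counts of the marker lists were not tested against these shares. Of 18 endothelial markers other than the members, 18 were tested, with 7 higher and 1 lower without overlap and a median of 0.10. Their summed linear signal, in units of the array's 75th percentile, was 101.3 to 108.2 in the RFP-negative and 120.0 to 125.8 in the RFP-positive fraction. The brightest probes weigh most in such a sum, here Egfl7 and Kdr, whose own differences were 0.07 and 0.13. The median of this list was 0.16 on RFP-positive replicate 1 and 0.06 on replicate 2. The list went both ways, with She, Flt1 and Sox7 at 0.93, 0.84 and 0.83. Eng, a co-receptor for TGF-beta family ligands, was at -0.98 with overlap. Against the RFP-negative mean, She, Flt1 and Sox7 were at 0.61, 0.62 and 0.50 on RFP-positive replicate 1. On RFP-positive replicate 2 they were at 1.25, 1.05 and 1.15. Eng was at -0.39 on RFP-positive replicate 1 and at -1.58 on replicate 2. Ecscr, at -0.19, was the 1 marker lower without overlap.

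Epithelial and endoderm markers had 12 of 13 genes tested, 0 higher and 8 lower without overlap, a median of -0.76 and a summed signal of 29.9 to 54.7 in the RFP-negative and 18.9 to 24.02 in the RFP-positive fraction. Afp was not well above background on the 4 arrays. These markers lay on the same side as F11r and with Cldn6 and Cldn7, the last 2 of which are on that list themselves. Their part in the F11r difference was not tested. Markers of OP9 stroma and fibroblasts had 11 of 13 tested, 0 higher and 8 lower without overlap, a median of -0.85 and a summed signal of 33.5 to 54.1 against 25.2 to 26.7. Dcn and Postn were not well above background. Fap, among the 8 lower, was well above background on only 1 RFP-positive array and entered the test through the RFP-negative fraction. Adipocyte markers had 9 of 9 lower without overlap, a median of -1.63 and a summed signal of 50.4 to 61.5 against 15.9 to 21.1. Mural and smooth muscle markers had 8 of 9 tested, 5 lower and 0 higher without overlap, a median of -0.62 and a summed signal of 35.1 to 53.3 against 27.5 to 28.9, with Cspg4 not well above background. These 3 lists lay opposite to Cdh5, Pecam1, Cldn5, Jam2, Tjp1 and Gja4, and their part in those differences was not tested.

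Haematopoietic and leukocyte markers, whose cells share Pecam1, Esam and F11r, had 15 of 16 tested, 5 higher and 3 lower without overlap and a median of 0.48. Against the RFP-negative mean, the list's median was 0.11 on RFP-positive replicate 1 and -0.10 on replicate 2. Their summed signal overlapped between the fractions, at 44.6 to 55.5 in the RFP-negative and 46.7 to 54.1 in the RFP-positive fraction. The brightest probes weigh most in this sum, here Cd44 and Csf1r, whose own differences were -0.05 and -0.0011, so it says little of the dimmer markers. Runx1, Gata1 and Itga2b, genes of blood progenitors and platelets, were higher without overlap, by 1.54, 1.44 and 0.59. The 3 lower without overlap were Spi1, Coro1a and Aif1. Spi1 was at -2.07 and -3.21 in the RFP-negative and at -3.60 and -3.89 in the RFP-positive fraction. Its difference was -1.11 (SE 0.44, limma adjusted p 0.744), and no array put it under the background mark. Coro1a and Aif1 were well above background on 0 and 1 of the RFP-positive arrays, so that no size is given for them. Myb, among the 5 higher, was well above background on only 1 RFP-negative array and entered the test through the RFP-positive fraction. Ptprc, the pan-leukocyte marker, overlapped, at -2.65 and -2.59 against -2.61 and -3.42. Of 7 erythroid markers 3 were tested, all with overlap, and Hba-x was below the background mark on all 4 arrays. Markers of undifferentiated stem cells had 7 of 8 tested, 2 lower and 0 higher without overlap and a median of -0.48, and Zfp42 was not well above background.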

How the data were processed

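Total RNA from 4 sorted samples, 2 RFP-negative and 2 RFP-positive, was measured on one-colour (Cy3) Agilent arrays, all on 1 slide and in 1 scan. Per the file headers, the deposited intensity values are processed signals of Agilent Feature Extraction (version 10.10.1.1). The authors' deposited value table is the same linear intensity times 1 constant per array, 6.45 and 6.02 for the RFP-negative and 5.82 and 5.39 for the RFP-positive arrays, with column medians of 136.2, 143.9, 133.9 and 142.3 in that order. The sources used here do not state how these were set.

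Of 62976 spots, 3671 controls were left out, as were 115 to 153 spots per array with outlier marks. The log2 signal minus its 75th percentile was averaged over spots of a probe. Probes were named by RefSeq accession without version (RefSeq, GRCm38.p6): 27235 of 55681 had 1 symbol, 0 several and 28446 none. A gene took its probe of highest mean, and entered the test where both arrays of a fraction were well above background; 2 genes with a missing value were dropped. The test was limma's (version 3.58.1, under R 4.3.3; lmFit, eBayes, no block), two-sided, Benjamini-Hochberg adjusted. Python 3.11.15, pandas 2.3.3 and matplotlib 3.10.9 were used. Named are all members and, per junction list, up to 4 genes of smallest p, some of which are not reported here; marker genes named beside them were chosen after their values were seen. The members and lists were chosen with earlier results of these data known. The fit was tested on simulated data in which few genes had known changes. There, limma's adjusted p was under 0.05 for 0.2% of the 2-fold and 6.8% of the 4-fold changes. Alternatives were other scalings, normexp (median signal and background, offset 50), the value table, other filters and probe summaries, eBayes with trend, a replicate block and each array left out.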

Additional observations from a re-analysis of the deposited data

How the results depend on the processing

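No alternative gave a member or any other gene an adjusted p under 0.05 in limma's test, while 388 to 2757 genes had an unadjusted p under 0.05. The median of the members was 0.48, and 0.18 with the mean of a gene's probes, where Jam2 was at -0.26 and Gja5 at -0.0471. In that setting the dim Jam2 probe and the second Gja5 probe enter the mean. There 5 members were higher without overlap, against 6 in the main fit and 7 with each array scaled to its median. With normexp and quantile normalization the members' median was 0.32. Over the 4 fits that leave out 1 array each, in which a lone array is taken to vary like the other fraction, the median ran from 0.18 to 0.55, and the members lower without overlap from 1 to 2. Single members ran from -0.0106 to 0.14 for Esam, from -0.12 to 0.24 for Jam3 and from -0.0069 to 1.12 for Gja5 in these fits. Cdh5, Pecam1, Cldn5, F11r, Tjp1 and Gja4 kept their sign in the 4 fits without an array and under the 4 other scalings and backgrounds. The other 6 alternatives leave the estimate of these single-probe genes as it is. The shared replicate numbers are not stated to pair the arrays, and the deviations of same-numbered arrays correlated at 0.09. With the replicate block, 0 members and 0 genes were called, and 1042 genes had an unadjusted p under 0.05, against 876 without it. Other scalings moved the median of all genes tested from -0.05 to at most 0.03, and no filter moved it to -0.12. The 2 arrays per fraction, with 2 residual degrees of freedom, limit every test here.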
